A study of Mus musculus with 10 samples.

Results

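The mitochondrial ribosomal protein genes were followed in bulk RNA from mouse gastrocnemius, a calf muscle made mostly of fast fibres. They were taken as every row of the deposited count table whose symbol is Mrpl or Mrps followed by a number, plus Dap3, and 79 of the 18025 genes in the table met that rule. Of these, 49 carry a large-subunit symbol (Mrpl) and 30 a small-subunit symbol (Mrps, and Dap3). All 79 passed the filter on low counts that left 12697 genes. RNA came from 5 COPD samples and 5 Ctrl samples, all C57BL/6 wild type, with an age of 8 weeks in the labels. COPD stands for chronic obstructive pulmonary disease, which the series title gives as a model induced by cigarette smoke. The dose and duration of smoke, and what the Ctrl mice breathed, are not stated in the labels. Nor do they state that the samples are separate animals, and p-values then measure only sample-to-sample spread, which may be technical.

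Mitochondria carry their own ribosome, which translates the few membrane subunits of the respiratory chain and ATP synthase that mitochondrial DNA encodes. Its RNAs are made in the organelle, but all of its proteins are encoded in the nucleus, made in the cytosol and imported. The small subunit binds the messenger RNA and decodes it, and the large subunit joins the amino acids and releases the new chain at the inner membrane. Muscle depends on this machinery because its oxidative capacity rests on the respiratory chain. Symbols do not match structure in every case: the proteins of Mrps30 and Mrps18a sit in the large subunit, and that of Mrps36 belongs to the oxoglutarate dehydrogenase complex.

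Library totals were 14085854 to 17163590 expected counts in COPD and 15637218 to 17251034 in Ctrl, and the members held 57234 to 65401 and 60269 to 83128 of them. COPD replicate 5 lay among the Ctrl libraries along the first component of a principal component analysis of log2 CPM (counts scaled to library size with TMM factors), at -21.9, where the other 4 COPD libraries lay at 11.4 to 38.03 and the Ctrl libraries at -23.9 to -10.04. Summed transcripts of Kdm5d, Ddx3y and Eif2s3y, which lie on the Y chromosome, were below 1 CPM in COPD replicates 1, 4 and 5 and above it in the other 7 libraries. Sex is not stated in the labels. No Ctrl library was below 1 CPM, so sex, if it differed, was partly confounded with group. Results that rest on COPD replicate 5 are therefore given with and without it. That library was singled out by these same expression values, and leaving it out tends to favour separation of the groups. Over all genes, edgeR called 8 with it and 410 without it. Values without it, and those of COPD replicates 1 to 4 alone, are therefore a description and no independent support.

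No member passed the adjusted threshold by edgeR comparing the 2 groups over all 10 libraries. Dap3 passed it by other tools and with a further term, and the members' median fold change lay slightly above that of all genes. In bulk muscle, fewer cells of a type and less RNA per cell cannot be told apart. With the quasi-likelihood test of edgeR, adjusted over all genes by the Benjamini-Hochberg method, 0 of 79 had an adjusted p under 0.05, where 0.063% of all genes did (0.0551% higher and 0.00788% lower). Without adjustment, at a p under 0.05, 8 were higher in COPD, against a background of 7.94% of all genes, and 1 was lower, against 6.64%. DESeq2, voom with sample weights and limma on log2(TPM + 1) each called 1 member, Dap3, which was lower (adjusted p = 0.000712, 0.0187 and 0.0443). So did edgeR with a term for Y-linked transcripts (adjusted p = 0.0305). Every library without those transcripts was COPD, so with that term the fold change rests on COPD replicates 2 and 3 against Ctrl. DESeq2 called 1.91% of all genes higher and 1.1% lower. Over all genes, 51 of 12697 were called lower with voom, 58 of 11190 with limma on log2(TPM + 1) and 51 of 12697 with the Y-linked term. The log2 fold change was above 0 for 63 of 79 members, and for 48% of all genes, but for 29 members with library size alone and 19 on log2(TPM + 1). With TMM its median was 0.13 over the members and -0.01 over all genes, with a range over the members of -0.76 (Dap3) to 0.40 (Mrpl28). The direction of the median depended on the scaling: with library size alone the medians were -0.04 for large and -0.02 for small subunit genes, where that of all genes was -0.17. On log2(TPM + 1) they were -0.08 and -0.07, where that of all genes was -0.18. Relative to all genes the members' medians were higher under each of these scalings, by 0.10 to 0.15.

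**Figure D1:**
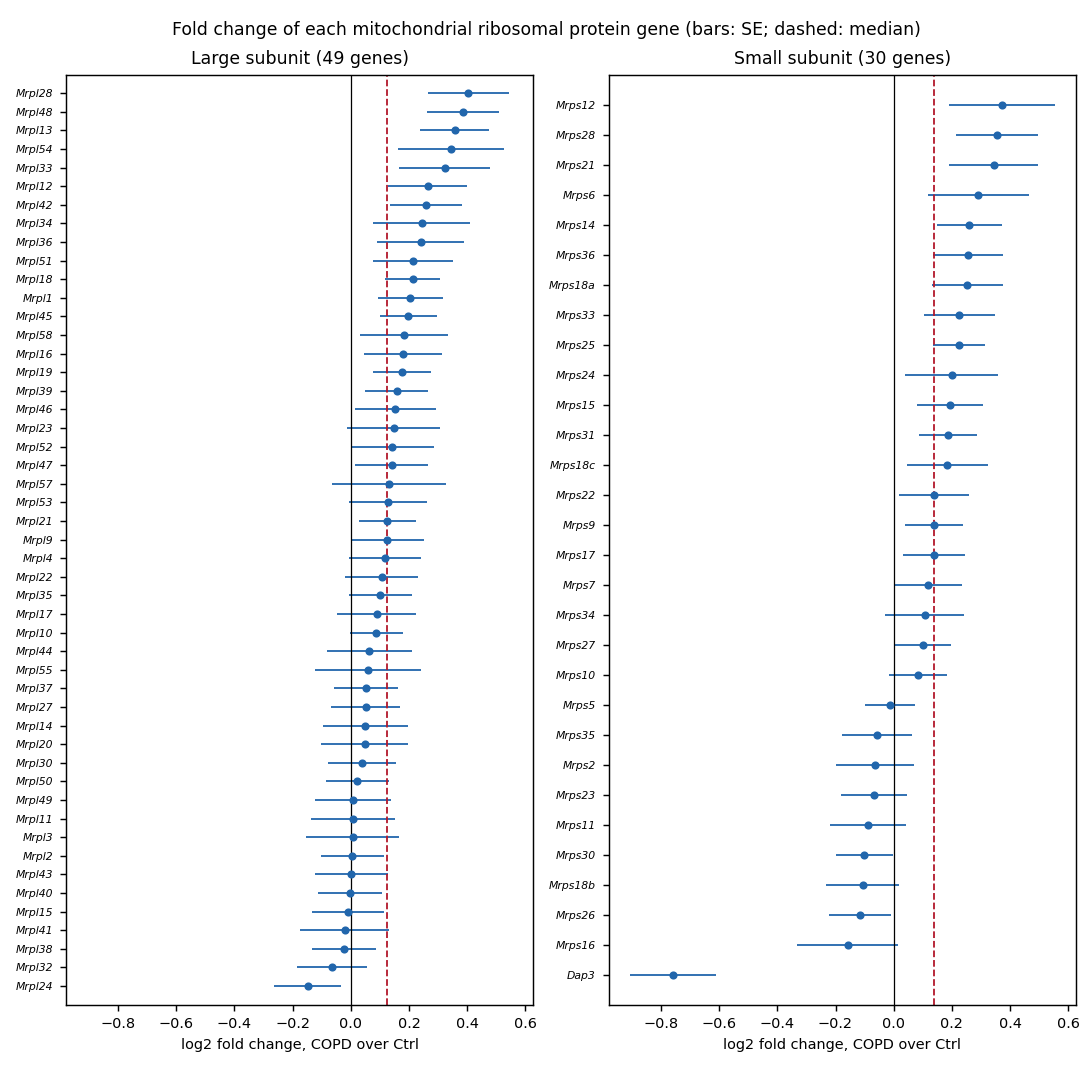
Log2 fold change of CPM, COPD over Ctrl, for each large-subunit gene (left) and small-subunit gene (right), with bars for the standard error and a dashed line at the median of each subunit. The points lie between -0.15 and 0.40 in the large subunit, and Dap3 stands alone at -0.76 in the small subunit.

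The members varied together from library to library. Against the mean of the Ctrl libraries, the mean log2 CPM over all members was 0.26, 0.21, 0.11, 0.13 and -0.17 in COPD replicates 1 to 5, against -0.05, -0.06, 0.02, 0.23 and -0.13 in Ctrl replicates 1 to 5. The groups overlapped: COPD replicate 5 was the lowest of all 10 libraries, and Ctrl replicate 4 was higher than all COPD libraries except replicate 1. COPD replicate 5 had the lowest CPM of its group for 68 of 79 members (86.1%), against 24.3% of all genes. Ctrl replicate 4 had the highest of its group for 61 (77.2%), against 25.6% of all genes. In 10 members the CPM of COPD replicates 1 to 4 all lay above all 5 Ctrl libraries (12.7%, and 4.80% of all genes). Those were Mrpl1, Mrpl13, Mrpl28, Mrpl45, Mrpl48, Mrps9, Mrps12, Mrps14, Mrps25 and Mrps36, and Dap3 was the only member where these 4 libraries all lay below in CPM. In TPM, of those 10 genes only Mrpl13 and Mrpl28 kept this order, and narrowly. The lowest of COPD replicates 1 to 4 and the highest Ctrl value were 105.5 and 105.49 TPM for Mrpl13. For Mrpl28 they were 68.88 and 68.53 TPM.

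Without COPD replicate 5, 2 members were higher past the adjusted threshold by edgeR, Mrpl28 and Mrpl48, where 2.06% of all genes were. Dap3 was lower, where 1.15% of all genes were. At an unadjusted p under 0.05, 24 of 79 members were higher, with 10.7% of all genes, and 1 was lower, with 10.1% of all genes. The fold change was above 0 for 69 members and for 47% of all genes. The medians were then 0.17 for large and 0.18 for small subunit genes. Over only the libraries with Y-linked transcripts, which leaves COPD replicates 2 and 3 against the 5 Ctrl, they were 0.18 and 0.18.

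**Figure D2:**
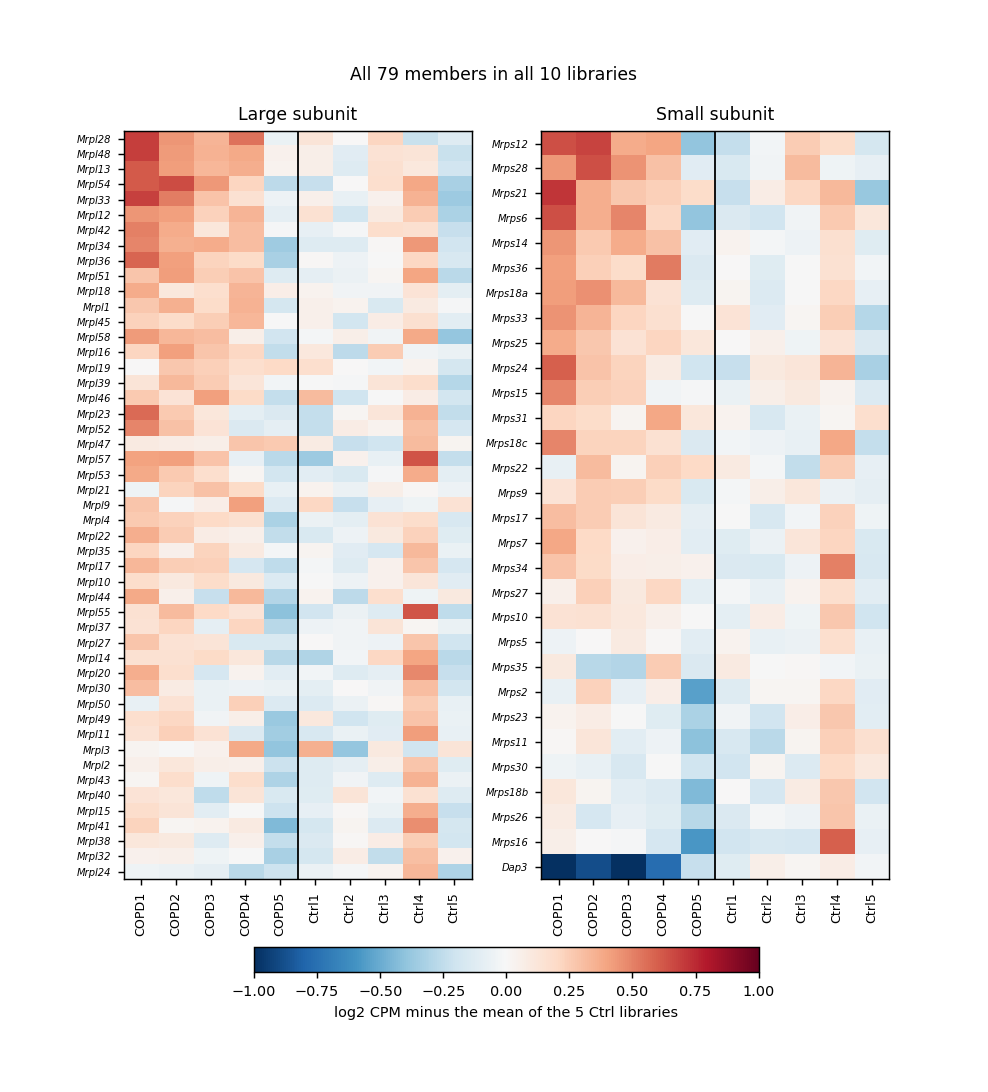
Log2 CPM of all 79 members in each of the 10 libraries, minus the gene's mean over the 5 Ctrl libraries, with large-subunit genes on the left, small-subunit genes on the right and genes ordered by fold change. COPD replicates 1 to 4 and Ctrl replicate 4 are mostly red (higher), COPD replicate 5 is mostly blue (lower), and the Dap3 row is blue in COPD replicates 1 to 4.

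Dap3 was the member with the smallest p and the only one below 0 at an unadjusted p under 0.05. It encodes a GTP-binding protein of the small subunit, first described as a death-associated protein. Dap3 had 28.5, 31.4, 27.9, 34.3 and 49.6 CPM in COPD replicates 1 to 5, against 53.4, 60.4, 58.8, 61.3 and 57.02 CPM in Ctrl replicates 1 to 5. All 5 COPD libraries lay below all 5 Ctrl libraries, with COPD replicate 5 close under the lowest Ctrl value. In CPM, Dap3 was the only member whose groups did not overlap, and 1.55% of all genes were separated in that direction. No member was separated in the other direction, where 1.29% of all genes were. The mean was 34.3 ± 8.90 CPM in COPD and 58.2 ± 3.11 CPM in Ctrl (SD, n = 5 each), a 0.591-fold level in COPD. By edgeR's quasi-likelihood test the difference did not pass over all genes (log2 fold change -0.76 ± 0.15 (SE), unadjusted p = 0.000231, adjusted p = 0.0757). Without COPD replicate 5, a library singled out from these same data, it passed by that test (log2 fold change -0.93 ± 0.10, adjusted p = 0.000931). Over the libraries with Y-linked transcripts alone the log2 fold change was -0.96 by the same test (adjusted p = 0.00446). Per length, Dap3 was at 23.5, 24.6, 24.3, 29.01 and 50.6 TPM in COPD replicates 1 to 5, against 58.5, 68.8, 57.98, 70.2 and 65.6 TPM in Ctrl replicates 1 to 5. TPM takes transcript length into account and has the same total in each library. These values too were all lower in COPD, with replicate 5 nearest to Ctrl. In TPM, Dap3 was not alone in this. Mrpl24 was at 62.8 to 69.8 TPM in COPD and 71.3 to 107 TPM in Ctrl. Mrps23 was at 69.7 to 83.02 TPM in COPD and 84.3 to 116 TPM in Ctrl. The share of all genes separated in TPM was not counted.

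**Figure D3:**
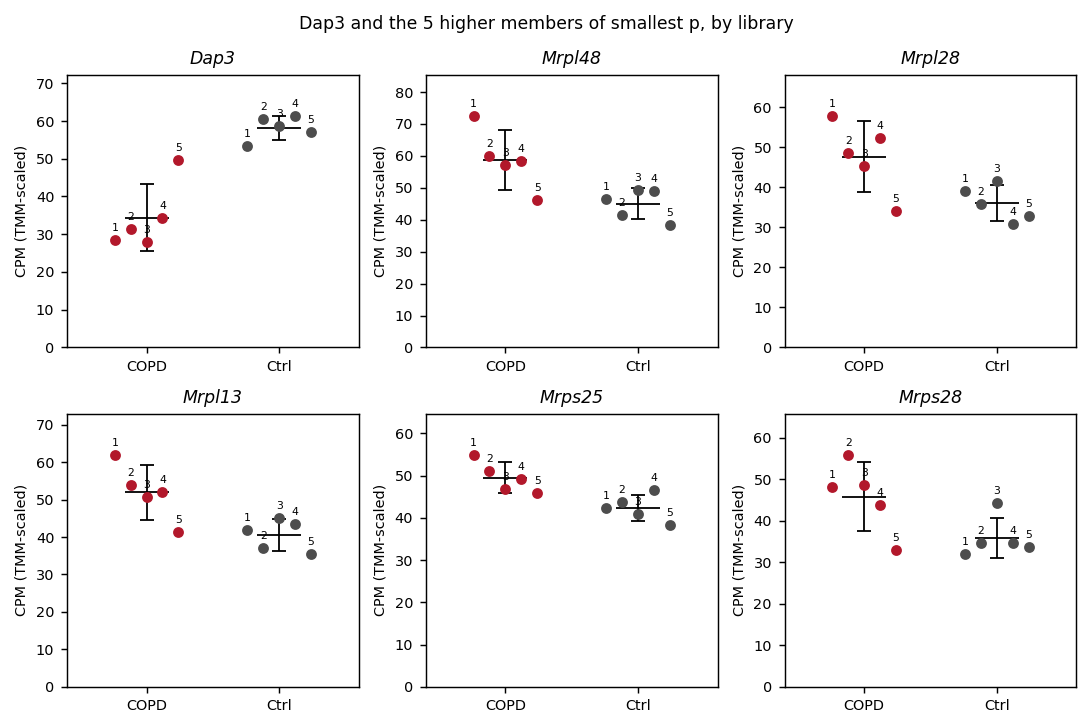
CPM by library for Dap3 and for the 5 higher members of smallest p, with COPD left of Ctrl. Each point is a library labelled by its replicate number, and the black line and bar give the mean and SD of 5 libraries. For Dap3 all COPD points lie below all Ctrl points, and for the other 5 genes COPD replicate 5 is the lowest COPD point.

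The estimated length of the Dap3 transcripts differed between libraries as well. Dividing the authors' expected count by their TPM gives a gene's effective length, averaged over its isoforms, up to a constant of the library. That constant was removed by the median over the 6342 genes with at least 5 TPM in every library, and the median gene was set to 1. For Dap3 the relative length was 0.735, 0.787, 0.762, 0.809 and 0.675 in COPD replicates 1 to 5, against 0.698, 0.678, 0.674, 0.669 and 0.688 in Ctrl replicates 1 to 5. COPD replicates 1 to 4 lay above all Ctrl libraries and COPD replicate 5 lay among them. The mean was 0.754 ± 0.0519 in COPD and 0.681 ± 0.0114 in Ctrl (SD over 5 libraries; exact two-sided permutation test, p = 0.0317, where the smallest possible is 0.00794). It was singled out after its values were seen, and over all 6342 genes the permutation test gave an adjusted p of 0.779. Without Ctrl replicate 3 or 4 the exact permutation p was 0.0556. Without COPD replicate 5, singled out from these data, it was 0.00794, the smallest possible over the 126 relabelings left. In size, 24 of the 6342 genes had a larger log2 shift than Dap3 (0.15). Mrpl39 had the next largest shift of the members (0.12), at 0.848, 0.923, 0.943, 0.854 and 0.982 in COPD and 0.863, 0.860, 0.865, 0.772 and 0.819 in Ctrl, with overlapping groups. The other 76 members measured shifted by less than 0.05. Among them Mrpl22, at the exit tunnel, had separated groups, at 0.312, 0.307, 0.310, 0.305 and 0.307 in COPD and 0.315, 0.315, 0.314, 0.313 and 0.321 in Ctrl (log2 shift -0.03). It had the smallest exact permutation p of the members, 0.00794, and an adjusted p of 0.74 over all genes measured. Which isoforms differ is not given by these files.

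**Figure D4:**
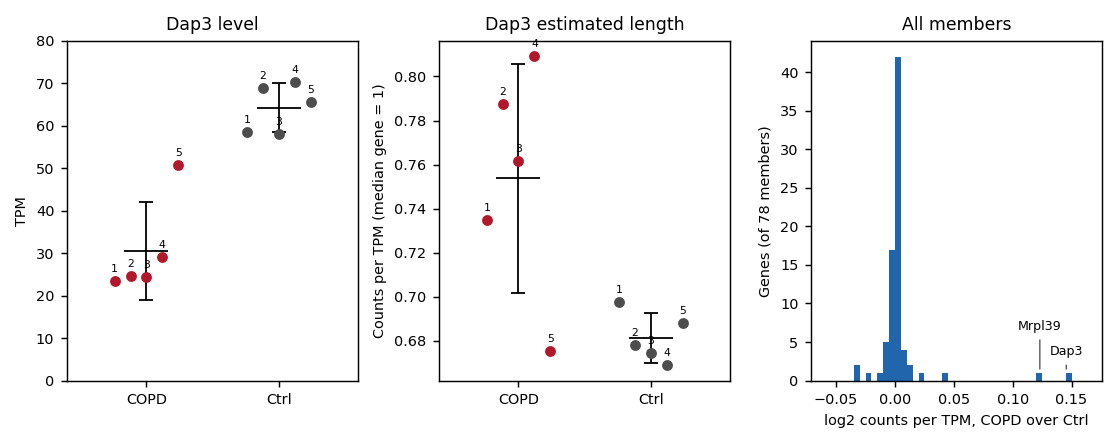
Dap3 level in TPM (left) and Dap3 counts per TPM relative to the median gene (middle, axis not from 0), by library with mean and SD, and the log2 shift in counts per TPM, COPD over Ctrl, of 78 members (right). COPD replicates 1 to 4 are low in level and high in relative length, COPD replicate 5 stands nearer Ctrl in both, and Dap3 and Mrpl39 stand apart from the other members at 0.15 and 0.12.

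In the GENCODE M21 annotation of GRCm38, exons of Dap3 overlap those of Ash1l, a histone methyltransferase gene on the opposite strand. Whether strand was used in counting is not stated. Ash1l was at 22.2, 32.2, 34.4, 36.5 and 37.8 CPM in COPD replicates 1 to 5, against 33.8, 36.5, 28.7, 25.5 and 39.6 CPM in Ctrl (log2 fold change -0.01 ± 0.16, edgeR adjusted p = 0.987). Its groups overlapped. Exons of 20 of the 79 members overlap those of another tested gene in that annotation, Mrpl13, Mrpl18, Mrpl24, Mrpl48, Mrps25 and Mrps34 among them, which makes their values uncertain where reads of the neighbour were counted with them.

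Among large-subunit genes, the lowest p belonged to Mrpl48, Mrpl13 and Mrpl28. Mrpl48, a protein of the central protuberance at the top of the large subunit, had 72.4, 60.1, 57.04, 58.3 and 46.04 CPM in COPD replicates 1 to 5, against 46.5, 41.5, 49.5, 49.03 and 38.4 CPM in Ctrl replicates 1 to 5. In CPM the groups overlapped through COPD replicate 5 alone. In TPM, COPD replicates 2, 3 and 5 (82.1, 82.4 and 65.3 TPM) lay within the Ctrl range of 64.4 to 83.2 TPM. Its mean was 58.8 ± 9.40 CPM in COPD and 44.97 ± 4.86 CPM in Ctrl (SD, n = 5 each; edgeR log2 fold change 0.39 ± 0.12 (SE), unadjusted p = 0.00894, adjusted p = 0.197). Mrpl13, the counterpart of a conserved bacterial protein, had 61.8, 53.99, 50.8, 52.04 and 41.3 CPM in COPD replicates 1 to 5, against 41.99, 36.98, 45.1, 43.5 and 35.4 CPM in Ctrl replicates 1 to 5 (edgeR log2 fold change 0.36 ± 0.12 (SE), unadjusted p = 0.0101, adjusted p = 0.204). Here too only COPD replicate 5 fell within the Ctrl range in CPM. Mrpl28, which has a bacterial counterpart, had 57.7, 48.6, 45.4, 52.2 and 34.2 CPM in COPD replicates 1 to 5, against 39.1, 35.9, 41.5, 30.7 and 32.7 CPM in Ctrl replicates 1 to 5 (edgeR log2 fold change 0.40 ± 0.14 (SE), unadjusted p = 0.0134, adjusted p = 0.224). Without COPD replicate 5 the edgeR adjusted p was 0.0415 for Mrpl28 at a log2 fold change of 0.50, and 0.0492 for Mrpl48 at 0.46. For Mrpl13 it was 0.0507, which did not pass. With Ctrl replicate 4 left out as well, the log2 fold changes were 0.45 for Mrpl28 and 0.49 for Mrpl48, and the edgeR adjusted p of 0.0627 and 0.0572 no longer passed. Pseudogene copies are annotated for Mrpl48, Mrpl23, Mrpl27 and Mrps36, and Mrpl48 reads shared with its copy cannot be told apart here.

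Mrpl18 and Mrpl42 had smaller differences. Mrpl18, which takes part in the central protuberance, had 88.8, 73.7, 77.04, 86.98 and 71.8 CPM in COPD replicates 1 to 5, against 70.4, 67.04, 66.8, 75.4 and 64.1 CPM in Ctrl replicates 1 to 5 (edgeR log2 fold change 0.21 ± 0.09 (SE), unadjusted p = 0.0429, adjusted p = 0.321). COPD replicates 2 and 5 lay within the Ctrl range. Mrpl42 was the most abundant member per length, at 766 ± 76.5 TPM in COPD and 739 ± 64.9 TPM in Ctrl (SD, n = 5 each). In CPM it had 372, 339.5, 284, 324 and 259.8 CPM in COPD replicates 1 to 5, against 248, 259.6, 296, 293 and 224 CPM in Ctrl replicates 1 to 5 (edgeR log2 fold change 0.26 ± 0.12 (SE), unadjusted p = 0.0572, adjusted p = 0.357), and COPD replicates 3 and 5 lay within the Ctrl range.

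The sequences before the start of transcription are shown for the pair of genes that were called without COPD replicate 5, Mrpl48 and Mrpl28, and for the pair of higher genes of each subunit with the smallest p whose stretch holds a searched motif. Each is the 150 bases that end just before the annotated start (RefSeq, build GRCm38.p6), 5′ to 3′ on the gene's strand, with a motif in capitals.
Mrpl48: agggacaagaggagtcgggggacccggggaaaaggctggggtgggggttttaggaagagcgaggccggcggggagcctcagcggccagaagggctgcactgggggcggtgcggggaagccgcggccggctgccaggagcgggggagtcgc
Mrpl28: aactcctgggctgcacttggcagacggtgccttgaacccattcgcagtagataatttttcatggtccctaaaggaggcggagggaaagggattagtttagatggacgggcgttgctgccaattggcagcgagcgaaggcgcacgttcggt
Mrpl36: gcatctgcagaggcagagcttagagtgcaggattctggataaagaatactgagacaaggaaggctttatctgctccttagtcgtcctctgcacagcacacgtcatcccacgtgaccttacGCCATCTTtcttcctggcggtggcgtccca
Mrpl51: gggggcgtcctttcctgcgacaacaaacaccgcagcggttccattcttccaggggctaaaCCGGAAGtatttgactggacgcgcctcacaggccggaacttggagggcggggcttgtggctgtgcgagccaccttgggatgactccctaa
Mrps18a: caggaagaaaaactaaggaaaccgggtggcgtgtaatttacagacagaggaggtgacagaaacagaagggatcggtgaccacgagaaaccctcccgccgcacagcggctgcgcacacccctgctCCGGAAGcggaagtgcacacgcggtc
Mrps22: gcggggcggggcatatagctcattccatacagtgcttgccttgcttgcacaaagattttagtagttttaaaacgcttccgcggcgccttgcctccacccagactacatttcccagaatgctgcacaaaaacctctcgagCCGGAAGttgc
The stretches lie at chr7:100608302-100608451 on the minus strand, chr17:26123353-26123502, chr13:73330859-73331008, chr6:125192050-125192199 and chr17:46110854-46111003 on the plus strand, and chr9:98601680-98601829 on the minus strand. The table lists 4 starts for Mrpl48, and the one farthest upstream was used. Mrpl48 is counted below among the members with the ETS letters, which stand outside the stretch printed.

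3 motifs of factors known to act on nuclear genes of mitochondria were searched on both strands, from 250 bases before to 50 bases after the start. They were CCGGAAG, the core bound by ETS factors such as GABPA, AAGATGGC for YY1, and the palindromic core bound by NRF1. RefSeq promoters were found for 69 members, and not for Dap3, Mrpl4, Mrpl13, Mrpl15, Mrpl19, Mrpl38, Mrpl54, Mrps28, Mrps34 and Mrps35. The ETS letters stood in 26 of them (37.7%), in 19.4% of the tested genes with a promoter and in 8.86% of all promoters of that length. The YY1 letters stood in 12 (17.4%, against 5.20% of tested genes and 2.75% of all promoters). The NRF1 letters stood in 3, Mrpl9, Mrpl32 and Mrpl39 (4.35%, against 2.29% and 0.971%). Members with the ETS letters had a median log2 fold change of 0.14 and those without one of 0.12. The medians with and without were 0.11 and 0.13 for YY1, and 0.125 and 0.129 for NRF1. A match is a description of the letters and shows no binding.

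Large-subunit genes with a fold change below 0 were few, 6 of 49, and none had an unadjusted p under 0.05. Mrpl24, at the rim of the exit tunnel, had 42.5, 42.1, 41.2, 36.4 and 38.1 CPM in COPD replicates 1 to 5, against 42.3, 43.7, 45.1, 55.4 and 35.5 CPM in Ctrl replicates 1 to 5 (edgeR log2 fold change -0.15 ± 0.12 (SE), unadjusted p = 0.225, adjusted p = 0.599). Mrpl32, whose precursor is cut by a protease of the inner membrane before it joins the ribosome, had 27.4, 27.6, 25.8, 26.5 and 21.3 CPM in COPD replicates 1 to 5, against 23.6, 27.99, 22.5, 32.9 and 27.5 CPM in Ctrl replicates 1 to 5 (edgeR log2 fold change -0.06 ± 0.12 (SE), unadjusted p = 0.6, adjusted p = 0.852). Both ranges overlapped widely, with Ctrl replicate 4 the highest library for each. Mrpl38 of the central protuberance had 93.6, 92.2, 78.9, 89.4 and 72.98 CPM in COPD replicates 1 to 5, against 78.3, 86.8, 90.8, 102 and 75.9 CPM in Ctrl replicates 1 to 5. Mrpl41, which has no bacterial counterpart, had 37.4, 32.6, 32.9, 34.1 and 23.7 CPM in COPD replicates 1 to 5, against 28.4, 32.7, 29.2, 44.4 and 28.3 CPM in Ctrl replicates 1 to 5. Mrpl15, which has one, had 88.8, 86.01, 73.3, 78.4 and 68.3 CPM in COPD replicates 1 to 5, against 74.4, 79.4, 75.3, 101 and 66.96 CPM in Ctrl replicates 1 to 5. The log2 fold changes of these 3 genes were -0.02, -0.02 and -0.01, with overlapping groups, and the sign of each turned without Ctrl replicate 4 and without COPD replicate 5.

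Small-subunit genes other than Dap3 included 4 that were higher at an unadjusted p under 0.05. Mrps25, the least abundant small-subunit gene per length (12.5 ± 0.442 TPM in COPD and 12.3 ± 1.25 TPM in Ctrl, SD, n = 5 each), had 54.8, 51.1, 46.8, 49.2 and 45.9 CPM in COPD replicates 1 to 5, against 42.4, 43.7, 41.02, 46.5 and 38.3 CPM in Ctrl replicates 1 to 5. In CPM only COPD replicate 5 fell within the Ctrl range (edgeR log2 fold change 0.22 ± 0.09 (SE), unadjusted p = 0.0266, adjusted p = 0.274). In TPM all COPD libraries did, at 12.01 to 13.01 TPM against 10.56 to 13.81 TPM in Ctrl. Mrps28, which is related to a conserved bacterial ribosomal protein, had 48.1, 55.7, 48.6, 43.7 and 32.9 CPM in COPD replicates 1 to 5, against 32.1, 34.7, 44.3, 34.5 and 33.6 CPM in Ctrl replicates 1 to 5 (edgeR log2 fold change 0.35 ± 0.14 (SE), unadjusted p = 0.0269, adjusted p = 0.275). COPD replicates 4 and 5 lay within the Ctrl range, whose highest value was Ctrl replicate 3. Mrps14, the counterpart of a bacterial protein in the head of the small subunit, had 47.3, 41.7, 45.1, 42.6 and 32.1 CPM in COPD replicates 1 to 5, against 35.7, 34.3, 33.5, 38.8 and 32.04 CPM in Ctrl replicates 1 to 5 (edgeR log2 fold change 0.26 ± 0.11 (SE), unadjusted p = 0.0385, adjusted p = 0.312), and COPD replicate 5 fell at the low end of the Ctrl range. Mrps21, which has a bacterial counterpart, had 191, 149, 140.5, 138 and 132 CPM in COPD replicates 1 to 5, against 99.3, 123, 135, 146 and 89.3 CPM in Ctrl replicates 1 to 5 (edgeR log2 fold change 0.34 ± 0.15 (SE), unadjusted p = 0.0435, adjusted p = 0.323). COPD replicates 3 to 5 lay within the Ctrl range. Mrps36 had 63.2, 56.1, 54.1, 68.1 and 43.04 CPM in COPD replicates 1 to 5, against 47.6, 43.6, 47.5, 52.8 and 46.6 CPM in Ctrl replicates 1 to 5 (edgeR log2 fold change 0.26 ± 0.12 (SE), unadjusted p = 0.0547, adjusted p = 0.353), with COPD replicate 5 the lowest of all libraries.

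Other small-subunit symbols lay below 0 without passing any threshold. Mrps26 had 42.2, 35.4, 37.5, 36.6 and 32.8 CPM in COPD replicates 1 to 5, against 35.9, 39.2, 38.4, 48.3 and 38.1 CPM in Ctrl replicates 1 to 5 (edgeR log2 fold change -0.12 ± 0.11 (SE), unadjusted p = 0.292, adjusted p = 0.663). Mrps30, whose protein is part of the large subunit, had 38.1, 37.3, 35.1, 39.01 and 34.04 CPM in COPD replicates 1 to 5, against 34.3, 39.9, 35.6, 44.98 and 42.04 CPM in Ctrl replicates 1 to 5 (edgeR log2 fold change -0.10 ± 0.10 (SE), unadjusted p = 0.321, adjusted p = 0.684). In both genes COPD replicate 5 was the lowest library. Mrps16, which has a bacterial counterpart, had 39.7, 38.3, 37.9, 34.1 and 25.5 CPM in COPD replicates 1 to 5, against 33.5, 34.3, 33.97, 57.96 and 36.02 CPM in Ctrl replicates 1 to 5. Mrps18b had 77.3, 73.00, 66.5, 65.2 and 52.5 CPM in COPD replicates 1 to 5, against 71.8, 63.8, 75.8, 86.02 and 62.5 CPM in Ctrl replicates 1 to 5. Ctrl replicate 4 was the highest library for all 4 genes, and the groups overlapped in each. Mrps16 and Mrps18b had log2 fold changes of -0.16 ± 0.17 and -0.11 ± 0.13 (SE).

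The genes were also read by their position in the ribosome. The stalk of the large subunit, which recruits translation factors, is built by Mrpl10, Mrpl11 and Mrpl12, with log2 fold changes of 0.09, 0.01 and 0.26. Mrpl12, which is also known to bind the mitochondrial RNA polymerase, had 145, 142, 125, 135 and 100.3 CPM in COPD replicates 1 to 5, against 118, 93.96, 114, 127 and 85.5 CPM in Ctrl replicates 1 to 5 (edgeR log2 fold change 0.26 ± 0.14 (SE), unadjusted p = 0.0768, adjusted p = 0.402). In the central protuberance, Mrpl48 at 0.39, Mrpl18 at 0.21 and Mrpl46 at 0.15 lay above 0, while Mrpl38 and Mrpl40 lay within 0.03 of 0. Around the exit tunnel, through which the new chain leaves, Mrpl17, Mrpl22, Mrpl23, Mrpl45 and Mrpl47 had log2 fold changes of 0.09, 0.11, 0.15, 0.20 and 0.14, and Mrpl24 was at -0.15. Mrpl45, which attaches the ribosome to the inner membrane, had 65.9, 63.8, 66.5, 70.6 and 55.9 CPM in COPD replicates 1 to 5, against 58.1, 49.3, 59.2, 62.7 and 52.04 CPM in Ctrl replicates 1 to 5 (edgeR log2 fold change 0.20 ± 0.10 (SE), unadjusted p = 0.068, adjusted p = 0.378). At the decoding centre of the small subunit, Mrps12 had 46.5, 47.6, 38.4, 39.1 and 22.6 CPM in COPD replicates 1 to 5, against 25.2, 29.2, 35.5, 33.8 and 26.2 CPM in Ctrl replicates 1 to 5 (edgeR log2 fold change 0.37 ± 0.18 (SE), unadjusted p = 0.0646, adjusted p = 0.372). In CPM, COPD replicate 5 was the lowest of all 10 libraries for Mrps12 and the other 4 COPD libraries were the highest. Members with a counterpart in the bacterial ribosome (46 genes) had a median log2 fold change of 0.13, and those without (33, Dap3 among them) one of 0.13.

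Large and small subunit genes had similar medians. The median log2 fold change was 0.13 over 49 large-subunit genes, 43 of them above 0, and 0.14 over 30 small-subunit genes, 20 of them above 0. Without COPD replicate 1 the large-subunit median was 0.0653 and the small-subunit median 0.10. Mean log2 CPM of the large subunit was 5.71, 5.66, 5.56, 5.57 and 5.26 in COPD replicates 1 to 5, against 5.39, 5.36, 5.44, 5.66 and 5.28 in Ctrl. For the small subunit it was 5.46, 5.41, 5.31, 5.33 and 5.08 in COPD and 5.16, 5.18, 5.25, 5.44 and 5.13 in Ctrl. In each library the large-subunit mean exceeded the small-subunit mean, by 0.233 ± 0.0300 in COPD and 0.194 ± 0.0331 in Ctrl (SD, n = 5 each). COPD replicates 1 to 4 lay between 0.239 and 0.251, above the Ctrl range of 0.145 to 0.226, and COPD replicate 5 lay within it at 0.180. The difference between the group means was 0.0392, and 0.00904 when Dap3 was left out of the small subunit, so most of it rested on Dap3. Without Dap3 the libraries lay at 0.200 to 0.236 in COPD and 0.169 to 0.246 in Ctrl, and the ranges overlapped. Summed TPM of large over small subunit genes was 1.96 ± 0.0553 in COPD and 1.95 ± 0.0307 in Ctrl (SD, n = 5 each).

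**Figure D5:**
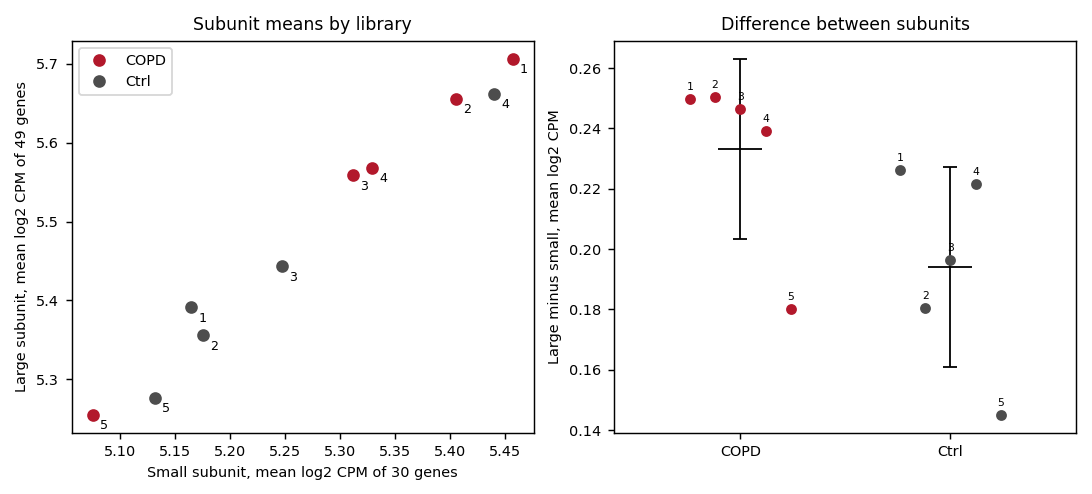
Left, mean log2 CPM of the large-subunit genes against that of the small-subunit genes in each library, labelled by replicate number (axes not from 0). Right, the large minus small difference by library with mean and SD of 5 (axis not from 0). The libraries with a high small-subunit mean also have a high large-subunit mean, and on the right COPD replicates 1 to 4 lie between 0.239 and 0.251.

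Per length, the members spanned a wide range of levels. Mrpl42 averaged 753 TPM over the 10 libraries, followed by Mrps21 at 499, Mrpl23 at 299, Mrpl30 at 253 and Mrpl54 at 252. Mrpl30 and Mrpl54 did not differ in mean level beyond their spread. Mrps15 (189 TPM) and Mrps18a (142 TPM) followed Mrps21 among the small-subunit symbols. The lowest levels were those of Mrpl19 at 4.92 and Mrps25 at 12.4 TPM. Mrpl23 was at 291 ± 45.4 TPM in COPD and 307 ± 53.5 TPM in Ctrl, and Mrpl30 at 237 ± 15.9 TPM in COPD and 268 ± 42.6 TPM in Ctrl (SD, n = 5 each). In CPM, Mrpl23, at the exit tunnel, had 156, 126, 114, 98.3 and 94.9 CPM in COPD replicates 1 to 5, against 89.3, 107, 114, 134 and 88.5 CPM in Ctrl replicates 1 to 5. Mrpl30 had 134, 114, 103, 104 and 103 CPM in COPD replicates 1 to 5, against 101, 108, 105, 134 and 95.03 CPM in Ctrl replicates 1 to 5. COPD replicate 1 alone exceeded the Ctrl range of Mrpl23, and no COPD library exceeded that of Mrpl30. Mrps15 had 135, 115, 113, 93.9 and 95.4 CPM in COPD replicates 1 to 5, against 92.3, 101, 103, 98.7 and 87.9 CPM in Ctrl replicates 1 to 5. Mrps18a had 86.8, 89.6, 81.3, 71.8 and 59.6 CPM in COPD replicates 1 to 5, against 66.1, 59.05, 64.8, 75.1 and 61.4 CPM in Ctrl replicates 1 to 5. COPD replicates 1 to 3 lay above the Ctrl range for both. Mrpl19 had 14.1, 16.9, 16.5, 15.8 and 16.2 CPM in COPD replicates 1 to 5, against 15.7, 14.1, 13.8, 14.4 and 12.4 CPM in Ctrl replicates 1 to 5, and only COPD replicate 1 lay within its Ctrl range. The groups overlapped for each of these 5 genes, and their unadjusted edgeR p lay between 0.0589 (Mrps18a) and 0.75 (Mrpl30). All members together took 0.712 ± 0.0593% of the TPM in COPD and 0.737 ± 0.0922% in Ctrl (SD, n = 5 each).

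Genes that work with the mitochondrial ribosome showed no common direction, and 0 passed the adjusted threshold by edgeR in any of the lists that follow. Chchd1, Aurkaip1, Gadd45gip1 and Ptcd3, which encode further ribosomal proteins under other symbols, all lay above 0 with a median of 0.16. None had an unadjusted p under 0.05. Of 14 genes for translation factors and chain insertion, 8 lay above 0 (median 0.03) and 0 had an unadjusted p under 0.05, the smallest p being that of the elongation factor gene Tsfm (11.4 ± 2.41 CPM in COPD and 9.11 ± 1.197 CPM in Ctrl, SD, n = 5 each, unadjusted p = 0.0635 by edgeR). Of 20 genes that charge mitochondrial transfer RNAs, 10 lay above 0 (median 0.0038). Sars2, the serine transfer RNA synthetase, was at 21.1 ± 1.92 CPM in COPD and 14.7 ± 2.85 CPM in Ctrl with no overlap (SD, n = 5 each, edgeR adjusted p = 0.131), and DESeq2 called 1 gene of this list higher. Ears2, the synthetase for glutamate, was at 10.2 ± 1.33 CPM in COPD and 11.9 ± 0.190 CPM in Ctrl, also with no overlap (SD, n = 5 each, edgeR adjusted p = 0.354). Groups were separated for 1.29% of all genes in the higher and 1.55% in the lower direction. In this list 1 gene was higher and 1 lower with an unadjusted p under 0.05. Assembly and ribosomal RNA modification genes had 1 lower at an unadjusted p under 0.05, 0 higher, and 14 of 25 above 0, with Mtg2, a GTPase of large-subunit assembly, at -0.22 ± 0.10. Genes that copy, transcribe or process mitochondrial DNA and RNA had 1 lower and 0 higher on that measure and 8 of 17 above 0, with the RNA-cutting enzyme gene Elac2 at -0.27 ± 0.10. Mitochondrial proteases and prohibitins had 0 lower and 2 higher and 4 of 9 above 0, with Afg3l2 at a log2 fold change of 0.33 ± 0.13, a subunit of the protease that matures the Mrpl32 protein.

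Among nuclear regulators of mitochondrial genes, Esrra, the estrogen-related receptor alpha, was at 102 ± 16.6 CPM in COPD and 78.9 ± 5.68 CPM in Ctrl, and Nrf1, nuclear respiratory factor, at 13.8 ± 1.79 CPM in COPD and 16.3 ± 0.982 CPM in Ctrl (SD, n = 5 each). Their edgeR adjusted p were 0.197 and 0.34. Of the 10 genes on that list, 1 was higher (unadjusted p under 0.05) and 1 was lower. Nuclear genes of oxidative phosphorylation, whose partners the mitochondrial ribosome makes, had a median log2 fold change of 0.31 over 79 genes, and cytosolic ribosomal protein genes one of -0.14 over 79. By library, the mean log2 CPM of oxidative phosphorylation genes against the Ctrl mean was 0.46, 0.33, 0.33, 0.36 and -0.02 in COPD replicates 1 to 5, against -0.02, -0.11, 0.18, 0.14 and -0.19 in Ctrl. That of cytosolic ribosomal genes was 0.25, -0.22, -0.28, -0.38 and -0.03 in COPD and -0.13, -0.01, -0.05, 0.43 and -0.23 in Ctrl. COPD replicate 1 and Ctrl replicate 4, the highest libraries for the mitochondrial ribosome, were also the highest of their groups for the cytosolic one.

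Marker levels of fibre and cell types stood beside these values as follows. The 7 fast-fibre markers, 7 of them above 0 and 1 at an unadjusted p under 0.05, summed to 144112 to 179229 CPM in COPD and 100538 to 159405 CPM in Ctrl, with Ctrl replicate 4 the lowest. The 6 slow-fibre markers, all below 0 (median -1.40) and 2 of them at an unadjusted p under 0.05, summed to 88.3 to 284 CPM in COPD and 112 to 906 CPM in Ctrl. The 8 macrophage markers, all below 0 in fold change and 4 of them at an unadjusted p under 0.05, summed to 34.2 to 107 CPM in COPD and 67.95 to 123 CPM in Ctrl. Endothelial markers, with 0 of 5 above 0, summed to 182 to 305 CPM in COPD and 190.1 to 312 CPM in Ctrl. The 2 satellite cell markers summed to 1.97 to 4.47 CPM in COPD and 3.48 to 4.97 CPM in Ctrl, and COPD replicates 1 to 4 lay below all Ctrl libraries. Tendon markers (median 1.08 over 3 tested) summed to 26.2 to 107 CPM in COPD and 15.2 to 45.8 CPM in Ctrl, and neutrophil markers (median -1.70 over 2 tested) to 0.444 to 40.1 CPM in COPD and 2.54 to 137 CPM in Ctrl. Sums were 284 to 591 CPM in COPD and 339 to 467 CPM in Ctrl for fibroblast, 182 to 307 CPM in COPD and 161 to 267 CPM in Ctrl for adipocyte, 75.6 to 299.96 CPM in COPD and 87.2 to 179 CPM in Ctrl for Schwann cell and 86.2 to 847 CPM in COPD and 28.7 to 566 CPM in Ctrl for red cell markers. TMM factors were 0.915 to 0.967 in COPD and 0.963 to 1.14 in Ctrl. Fast-fibre markers, which define this muscle, were abundant in all libraries, and Ctrl replicates 1 and 4 were highest for slow-fibre markers. The part of fibre type, of these other cell types and of scaling in the members' differences was not tested. Across the 78 members with at least 5 TPM in every library, the relation of fold change to estimated transcript length was weak (Pearson r = -0.25, Spearman rho = -0.32). Across all 6342 such genes r was -0.0842 and rho -0.115. These are across genes that share libraries and are a description.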

How the data were processed

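RNA of 10 muscle samples was sequenced, and groups and replicate numbers came from the sample titles. The authors deposited expected counts per gene, of which 30.7% were not whole, and TPM for the same genes. Per the submitters' processing notes, the tools were RSEM 1.2.12, Bowtie2 2.2.5, HISAT2 2.0.4 and DESeq2 1.4.5, and the build was mm9, with no role or order given. Use of strand in counting is not stated. As the reference was GRCm38, its coordinates are given only for RefSeq promoters.

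Expected counts were rounded to whole numbers, filtered with filterByExpr, scaled by TMM and tested with edgeR 4.0.16 (glmQLFit and glmQLFTest, R 4.3.3) over all genes with Benjamini-Hochberg adjustment at 0.05. Fold changes are COPD over Ctrl, and the standard error is the log2 fold change divided by the square root of F. CPM are TMM-scaled, and log2 CPM has a prior count of 2. Single values were compared by two-sided exact permutation over 252 relabelings, or 126 with 1 library left out. Scripts were checked on simulated data. Alternatives were DESeq2 1.42.0, other scalings and filters, limma 3.58.1 on log2(TPM + 1) or log2(TPM + 0.1) for genes with a mean of at least 1 TPM, voom with sample weights, a replicate block, Y-linked transcripts and leaving out each library. Values given library by library are those of Dap3, of the 5 members with the smallest p per subunit and direction, of the 3 most abundant and the least abundant per subunit, and of Mrpl12, Mrpl45 and Mrps12, added for their roles after their values were seen. The members and lists were chosen with earlier results of these data known. A total of 14085854 to 17251034 counts per library limits the precision of low genes. Libraries of a group differed by more than sampling noise, with a chi-square statistic of 16.9 to 89.6 for each degree of freedom. Figures were drawn with matplotlib 3.10.9.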

Additional observations from a re-analysis of the deposited data

Results flagged for a closer look

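A library stood apart from the other 4 of its group in 6 of 58 groups of 5 examined, where chance gives about 1 in 20 (2.90 of 58). The groups share the same libraries and hold genes that varied together. Their flags are therefore not independent, and the count is a description. In COPD, replicate 5 was low for Mrpl32 at 21.3 CPM, where the other COPD libraries had 25.8 to 27.6 CPM. It was also low for the large minus small difference in mean log2 CPM, at 0.180. Ctrl replicate 4 was high for Mrpl41 at 44.4 CPM, for Mrps26 at 48.3 CPM and for Mrps16 at 57.96 CPM. Ctrl replicate 3 was high for Mrps28 at 44.3 CPM.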

How the results depend on the processing

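Over all genes, 8 were called with edgeR, and 414 with DESeq2, 17 without a filter, 5 with a mean of at least 5 CPM, 67 and 65 with limma on log2(TPM + 1) and log2(TPM + 0.1), 137 with voom, 216 with a term for Y-linked transcripts, 488 over the libraries that have them, 256 without COPD replicate 5 and Ctrl replicate 4 (chosen after seeing the data), and 0 (1510 at an unadjusted p under 0.05, without COPD replicate 2) to 410 leaving out 1 library. Of the members, 0 were called with edgeR, 1 (Dap3) with DESeq2, limma, voom and both Y-linked settings, 2 (Dap3 and Mrpl34) without COPD replicate 5 and Ctrl replicate 4, and 0 to 3 leaving out 1 library, most without COPD replicate 5. Both Y-linked settings rest on COPD replicates 2 and 3 against Ctrl and are nearly the same comparison. The cause was not tested.

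The large and small subunit medians were -0.0399 and -0.0247 with library size alone, -0.0818 and -0.0697 on log2(TPM + 1), and -0.0842 and -0.0709 on log2(TPM + 0.1), where the median of all genes was also below 0. Leaving out 1 library gave 0.0653 to 0.17 and 0.10 to 0.20, lowest without COPD replicate 1 for both. Large minus small stayed above 0 in all 15 other settings (0.00904 to 0.0593) and leaving out each library (0.0270 to 0.0524), and moving Mrps30 and Mrps18a to the large subunit and leaving out Mrps36 gave 0.0424.

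Dap3 stayed below 0 in all settings, at adjusted p of 0.000712 to 0.132 and 0.000931 to 0.173 leaving out 1 library. Of all 79 members, 63 lay above 0 with edgeR and TMM, 29 with library size alone and 19 on either TPM scale. Among the members chosen by p or level, which leaves out Mrpl12, Mrpl45 and Mrps12, signs turned as follows. On log2(TPM + 1) and log2(TPM + 0.1) they turned for Mrpl18 (-0.00249 and -0.00251), Mrpl19 (-0.0242 and -0.0286), Mrpl23 (-0.0696 and -0.0698), Mrpl30 (-0.16 and -0.16) and Mrps15 (-0.0216 and -0.0217), with library size alone Mrpl23 (-0.0148) and Mrpl30 (-0.13). With voom they were Mrpl15 (0.0401), Mrpl32 (0.0190), Mrpl38 (0.00420) and Mrpl41 (0.0731). With the Y-linked term and over the libraries with Y-linked transcripts they were Mrpl15 (0.00329 and 0.0125) and Mrpl41 (0.00738 and 0.0155). Without COPD replicate 5 and Ctrl replicate 4 together they were Mrpl15 (0.14), Mrpl32 (0.0778), Mrpl38 (0.0930), Mrpl41 (0.21), Mrps16 (0.12) and Mrps18b (0.0405). Leaving out 1 library, the ranges that crossed 0 were Mrpl15 -0.0649 to 0.0925, Mrpl30 -0.0341 to 0.12, Mrpl32 -0.12 to 0.0177, Mrpl38 -0.0679 to 0.0423, Mrpl41 -0.0801 to 0.12 and Mrps16 -0.21 to 0.0268.

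Same-numbered samples did not deviate together (correlations -0.140 to 0.0413), and 0 of 5 COPD samples correlated best with their own number. With the replicate number as a block, 7 genes and 0 members were called, and the medians were 0.12 and 0.14.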
